A study of Oryza sativa with 8 samples.

Results

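Root tips of dark-grown rice seedlings that had all received ethylene gas were compared between 2 treatment labels, calcium and ethylene (replicates 2 and 3) and ethylene (replicates 3 and 4). These 4 of the 8 RNA-seq libraries in the series were chosen by their treatment label. The other 4 libraries, calcium (replicates 1 and 2) and control (replicates 1 and 2), were labelled without ethylene, are called air here, and served for the same calcium contrast in air. All groups were the variety Dongjin, and no label names a transgene or mutation. Seeds germinated for 2 days at 37 °C in darkness, and seedlings were kept dark for another 3 days at 28 °C in sealed containers, into which 2 ppm ethylene was injected for the ethylene groups. The labels speak of differing CaCl2 supplies but give no concentration for any group, and the series names a low and a normal calcium supply without tying them to the labels. "Calcium" below therefore means the label and not a known dose. No label gives the number of plants in a library or says whether replicates were grown separately, so the tests rest on the variation among these libraries, part or all of which may be technical.

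Ethylene is a gaseous plant hormone perceived by receptors in the endoplasmic reticulum membrane. In the absence of the gas these receptors keep the pathway off through a CTR1-type kinase, and binding of ethylene releases EIN2 and EIN3-like transcription factors, which change the expression of many genes. In dark-grown rice seedlings ethylene inhibits root growth, and the root tip holds the meristem and elongation zone in which that response is seen. Calcium is a second messenger in plant cells as well as a nutrient and a component of cell walls.

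The 4 ethylene-treated libraries held 21021207 and 19368504 counts in calcium and ethylene replicates 2 and 3, and 19099091 and 25907083 counts in ethylene replicates 3 and 4. A floor of 3 counts corresponded to 0.116 to 0.157 CPM, the count scaled to the size of the library, in these 4 libraries, counting error only. A total of 27008 genes passed the filter on low counts in the 8 libraries. The table's gene IDs are not paired with gene names, and none matched the rice gene table used, so genes are described by number, level and response, and 4 are named by ID. For the same reason the tissue label was not checked against root tip markers, and genes of the ethylene and calcium pathways were not looked up. In whole root tips, fewer cells of a type and less RNA per cell cannot be told apart.

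The ethylene-treated libraries did not sort cleanly by calcium label. Among the 17777 genes that averaged 5 CPM or more over these 4 libraries, calcium and ethylene replicate 3 was at least 2-fold apart from ethylene replicate 3 in 2.55% of genes, the closest of the 6 pairs. The calcium and ethylene replicates were that far apart from each other in 3.67% of genes. The ethylene replicates were that far apart in 7.67%. Calcium and ethylene replicate 2 differed from ethylene replicate 3 in 5.57% of genes. Both pairs with ethylene replicate 4 were the farthest apart, at 15.8% with calcium and ethylene replicate 2 and 11.7% with calcium and ethylene replicate 3. The spread within the ethylene group was thus larger than the distance of either calcium and ethylene library from ethylene replicate 3. In all 4 pairs between the groups, more genes were 2-fold lower than 2-fold higher in the calcium and ethylene library. The shares were 1.82% lower and 0.737% higher in the closest pair and 9.97% lower and 5.80% higher in the farthest. These pairs share libraries, and uneven splits were also seen within groups. Calcium and ethylene replicate 2 was 2-fold lower than replicate 3 in 2.38% of genes and 2-fold higher in 1.29%. Ethylene replicate 3 was 2-fold lower than ethylene replicate 4 in 4.06% and 2-fold higher in 3.61%.

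**Figure D1:**
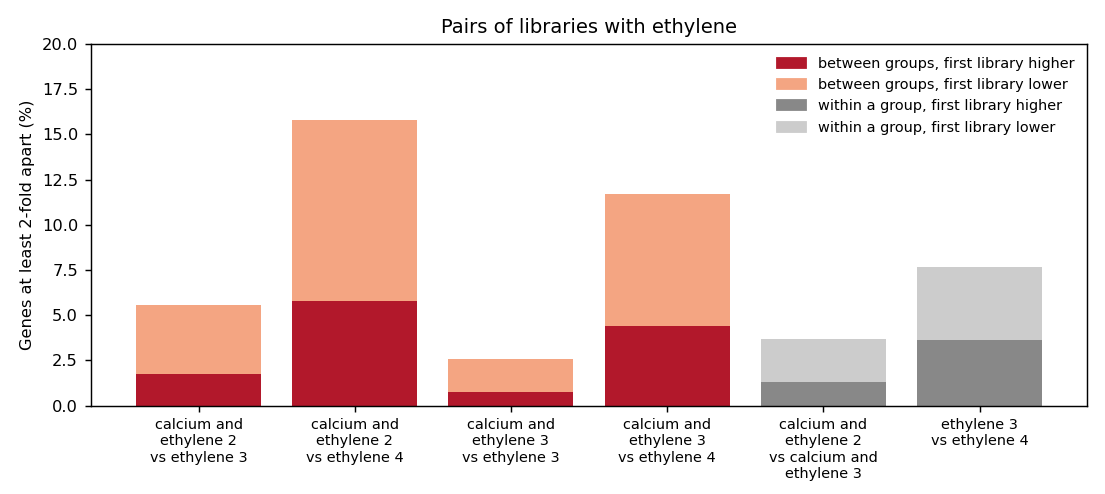
Share of genes at least 2-fold apart (%, y axis) for each pair of ethylene-treated libraries (x axis), over 17777 genes of at least 5 CPM; dark parts are genes higher and light parts genes lower in the library named first. The 4 pairs between groups run from 2.55% to 15.8%, and the pairs within the calcium and ethylene group and within the ethylene group are at 3.67% and 7.67%.

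No single gene passed the test between calcium and ethylene and ethylene, yet the differences leaned towards lower levels in calcium and ethylene. The edgeR quasi-likelihood test, fitted to all 8 libraries, called 0 genes (0% of 27008) at a Benjamini-Hochberg adjusted p under 0.05, with a lowest adjusted p of 0.281. At an unadjusted p under 0.05 there were 2076 genes (7.69%); 5% of the genes tested is 1350. Of these, 616 were higher (2.28% of those tested) and 1460 were lower (5.41%) in calcium and ethylene, so that 70.3% were lower. DESeq2 called 180 genes, 16 higher (0.0592%) and 164 lower (0.607%), and edgeR on every gene with a count called 15 higher (0.0421% of 35620) and 101 lower (0.284%). The median log2 fold change over all genes tested was 0.0038, with 50.4% of genes above 0, values that the scaling of the libraries holds near the centre. The quartiles were -0.32 and 0.29, and the median standard error was 0.33.

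The lean was steepest at the very top of the list. Ordered by p, the first gene that was higher in calcium and ethylene stood at rank 25, behind 24 lower genes. Of the 100 genes with the lowest p, 86 were lower, and the median absolute log2 fold change of the 100 was 1.52. Of the 200 lowest, 171 were lower. The lean grew with expression level. Genes of 100 CPM or more in the 4 libraries had an unadjusted p under 0.05 on the lower side in 11.6% of cases and on the higher side in 1.83%. At 10 to 100 CPM these shares were 6.92% lower and 2.90% higher, and at 1 to 10 CPM they were 3.62% and 2.10%. Standard errors were smaller for higher genes, with a median of 0.21 at 100 CPM or more against 0.44 at 1 to 10 CPM.

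These counts depended on single libraries. The excess over 1350 genes was not seen without ethylene replicate 4 or without calcium and ethylene replicate 2. More genes were tested in these fits, 28179 and 28184 in that order against 27008. Each such fit leaves a lone library in a group, so it cannot tell an absent difference from a weaker test. Without ethylene replicate 4, 210 genes were higher and 418 lower at an unadjusted p under 0.05. Without calcium and ethylene replicate 2 the numbers were 199 and 494. Without ethylene replicate 3, which leaves ethylene replicate 4 alone in its group, the numbers were 2239 higher and 2290 lower, a near even split, and edgeR called 171 higher (0.605% of 28283) and 174 lower genes (0.615%) at an adjusted p under 0.05.

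The gene with the lowest p was AGIS_Os07g007890, with a listed length of 1381 bases. It had 8.60 and 7.94 CPM in calcium and ethylene replicates 2 and 3, and 35.4 and 32.9 CPM in ethylene replicates 3 and 4. The groups did not overlap, and the gap was many times the spread within either. The means of 8.27 ± 0.466 and 34.2 ± 1.75 CPM (SD, n = 2 each) gave a log2 fold change of -2.04 (SE 0.23, edgeR adjusted p = 0.281). In air the same gene had 17.1 and 13.8 CPM in calcium and 38.2 and 27.5 CPM in control, again with no overlap, which came to -1.09 on the log2 scale (SE 0.22, adjusted p = 1). Its mean level was 34.2 CPM in ethylene and 32.9 CPM in control (log2 fold change 0.05, SE 0.22, adjusted p = 0.882).

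AGIS_Os11g027170, with a length of 1311 bases, was second. It had 14.8 and 12.4 CPM in calcium and ethylene, and 41.6 and 57.5 CPM in ethylene, with no overlap and a difference of -1.87 on the log2 scale (SE 0.22, adjusted p = 0.281). In calcium it had 12.05 and 10.4 CPM, and in control 19.9 and 19.0 CPM (log2 fold change -0.79, SE 0.22, adjusted p = 1). Its level in calcium and ethylene was close to that in calcium, 0.27 apart on the log2 scale (SE 0.22, adjusted p = 0.412). In ethylene against control this gene rose by 1.35 on the log2 scale (SE 0.22, adjusted p = 0.00822). These ethylene contrasts share libraries with the calcium contrast and are given for the levels only.

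Of the genes that were higher in calcium and ethylene, AGIS_Os02g007250, 1491 bases long, had the lowest p. It had 29.1 and 36.4 CPM in calcium and ethylene and 12.5 and 6.18 CPM in ethylene. All 4 air libraries were lower, with 5.31 and 4.62 CPM in calcium and 4.19 and 4.32 CPM in control. The groups with ethylene did not overlap, and the log2 fold change was 1.81 (SE 0.34, adjusted p = 0.565). AGIS_Os04g029580, 2418 bases long, had 26.8 and 13.4 CPM in calcium and ethylene and 4.82 and 6.18 CPM in ethylene, which is a difference of 1.87 on the log2 scale (SE 0.35, adjusted p = 0.588). Its calcium and ethylene libraries were 2-fold apart, and the lower of them was near the 10.8 and 13.1 CPM in calcium and the 9.13 and 10.4 CPM in control. Per kilobase, in the ethylene libraries, the lower pair of genes stood at 24.7 (AGIS_Os07g007890) and 37.8 CPM (AGIS_Os11g027170), above AGIS_Os02g007250 at 6.27 and AGIS_Os04g029580 at 2.27 CPM. All 4 IDs were chosen for their low p and separated groups, so their separation in the ethylene-treated libraries is how they were picked. All 4 passed the threshold with DESeq2 (adjusted p from 1.54e-09 to 0.00128), but each passed in at most 3 of the 16 alternatives run for it. Adjusted p in these alternatives went up to 1. All 4 kept their direction throughout, which the choice favours because the alternatives reuse the same counts.

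**Figure D2:**
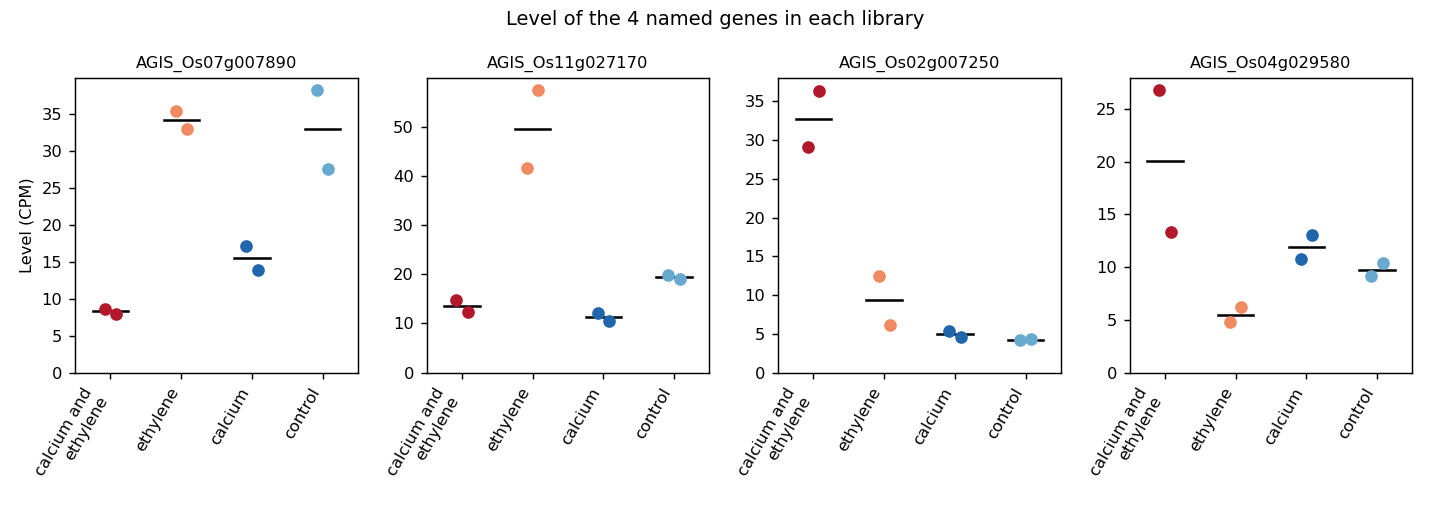
Level (CPM, y axis from 0, a scale for each panel) of the 4 named genes in every library, by group (x axis); points are libraries and bars are group means of 2. AGIS_Os07g007890 and AGIS_Os11g027170 are lower in calcium and ethylene (8.27 and 13.6 CPM) than in ethylene (34.2 and 49.6 CPM), and AGIS_Os02g007250 and AGIS_Os04g029580 are higher (32.7 and 20.1 CPM against 9.34 and 5.50 CPM).

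Genes that rose with ethylene tended to be lower, and genes that fell with ethylene tended to be higher, in calcium and ethylene than in ethylene. Ethylene-responsive genes were taken from the contrast of the 2 ethylene groups with the 2 air groups, pooled over calcium, which weighs calcium and ethylene and ethylene equally. The spread within these groups was not equal, with 3.67% of genes 2-fold apart in calcium and ethylene and 7.67% in ethylene, and chance deviations of the ethylene libraries enter both the choice of genes and the difference described. Their part in the medians below was not tested. In that contrast 5520 genes rose (20.4% of those tested) and 5006 fell (18.5%) at an edgeR adjusted p under 0.05. The 5520 genes that rose had a median log2 fold change of -0.20 in calcium and ethylene against ethylene, with 67.2% below 0, against 49.6% of all genes tested. The 5006 genes that fell had a median of 0.17, with 68.5% above 0, against 50.4% of all genes. The 16482 genes not called with ethylene had a median of 0.0072. Each list was described by its counts and median only, and no test was made of a list.

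The same lean appeared in the genes with low p. Of the genes that rose with ethylene, 673 were lower (12.2%) and 92 higher (1.67%) at an unadjusted p under 0.05, beside 5.41% lower and 2.28% higher among all genes tested. Of those that fell with ethylene, 295 were higher (5.89%) and 153 lower (3.06%). Among genes not called with ethylene, 634 were lower (3.85%) and 229 higher (1.39%), so the excess of lower genes was also present outside the ethylene response. Both calcium and ethylene libraries were below both ethylene libraries in 34.6% of the genes that rose with ethylene, beside 22.1% of all genes tested, and both were above in 32.5% of the genes that fell, beside 20.1% of all.

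**Figure D3:**
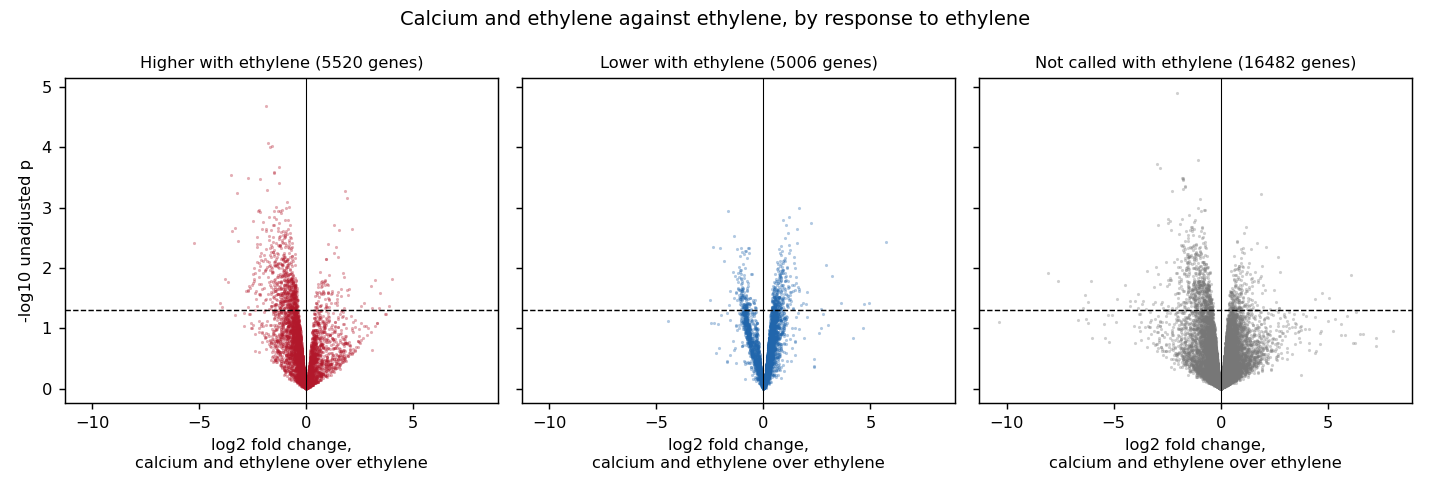
Log2 fold change of calcium and ethylene over ethylene (x axis) against the -log10 unadjusted p (y axis), 1 point per gene, for genes that rose with ethylene, fell with ethylene or were not called with ethylene; the dashed line is an unadjusted p of 0.05. Of the genes that rose with ethylene, 673 lie above the line on the lower side and 92 on the higher side; of those that fell, 153 lie on the lower and 295 on the higher side.

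The median difference was larger where the ethylene response was larger, up to a point, but the share of genes on that side did not grow steadily with it. Among genes that rose with ethylene by less than 1 on the log2 scale, the median calcium and ethylene against ethylene was -0.15 (2118 genes). It was -0.28 in the 1778 genes that rose by 1 to 2 and -0.34 in the 649 that rose by 2 to 3. The 975 genes that rose by 3 or more had a median of -0.20 with quartiles from -0.95 to 0.68, so this class lay widely on both sides of 0. Among genes that fell with ethylene by less than 1, the median was 0.15 (2957 genes), and it was 0.21 in the 1855 that fell by 1 to 2. In the 150 that fell by 2 to 3 it was 0.59, and in the 44 that fell by 3 or more it was 0.70, with quartiles from -0.08 to 2.43. From the smallest to the largest rise, 70.7%, 70.2%, 65.6% and 55.2% of genes were below 0. From the smallest to the largest fall, 70.9%, 63.9%, 76.0% and 72.7% were above 0. Calcium against control shares no library with calcium and ethylene against ethylene, but all 4 groups entered the contrast that set the classes, so the sides taken by these medians are not independent of that choice. It had medians of -0.14, -0.25, -0.33 and -0.05 over the same rising classes and 0.12, 0.13, 0.30 and 0.33 over the same falling classes.

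**Figure D4:**
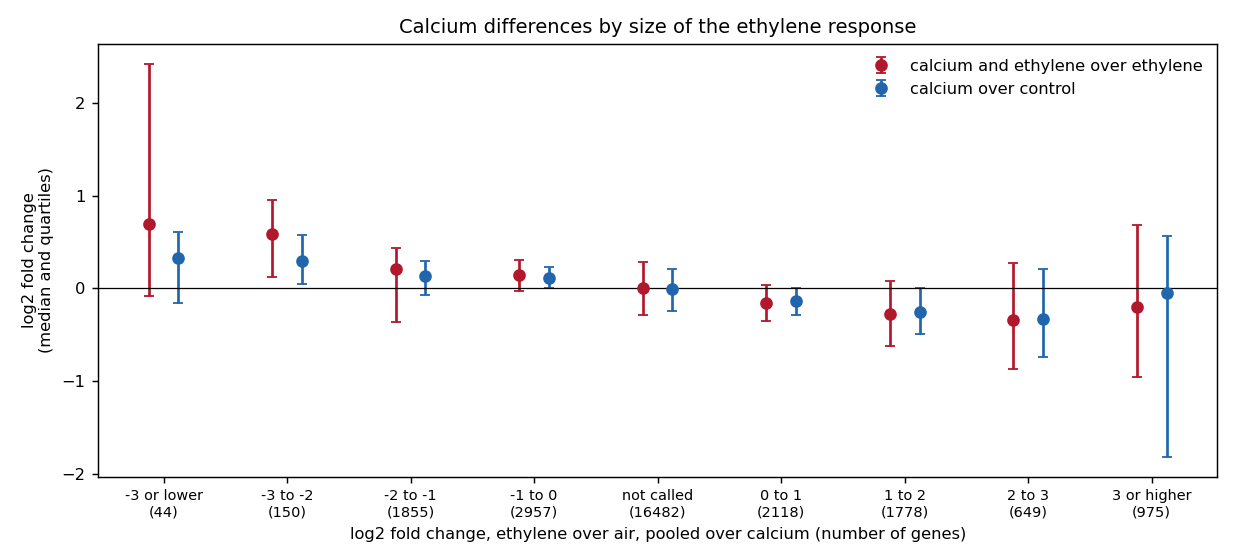
Median log2 fold change with its quartiles (y axis) by size of the response to ethylene (x axis, log2 classes with the number of genes), for calcium and ethylene over ethylene and for calcium over control. Medians in calcium and ethylene over ethylene run from 0.70 in the genes that fell most to -0.34 in the genes that rose by 2 to 3, and those in calcium over control lie on the same side of 0 in each class that responded to ethylene.

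By library, the genes that rose with ethylene stood at a median of 1.04 and 1.16 above the mean of the air libraries, on the log2 CPM scale, in calcium and ethylene replicates 2 and 3, and at 1.22 and 1.32 in ethylene replicates 3 and 4. The groups did not overlap on this measure, but with 2 libraries against 2 an exact two-sided permutation test cannot give a p below 0.333. As a share of all counts these genes held 30.6% and 34.1% in calcium and ethylene, and 34.0% and 36.8% in ethylene, where the groups overlapped. The genes that fell with ethylene stood at -0.75 and -0.85 in calcium and ethylene and at -0.83 and -0.94 in ethylene, with overlap. In each list ethylene replicate 4 was farthest from air and calcium and ethylene replicate 2 was nearest to it. Each alternative fit drew its own lists of genes that rose and fell, so the genes changed along with the libraries. Without ethylene replicate 4 the median difference of the genes that rose in that fit was -0.076, and without ethylene replicate 3 it was -0.42. That of the genes that fell was 0.087 without ethylene replicate 4, 0.38 without ethylene replicate 3 and 0.097 without calcium and ethylene replicate 2. Both medians kept their sign in all 14 alternative fits that gave one.

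A smaller set of genes separated the groups by at least 2-fold. Among the 17777 genes of at least 5 CPM, both calcium and ethylene libraries were above both ethylene libraries in 3619 (20.4%) and below both in 4140 (23.3%). Requiring means at least 2-fold apart left 179 higher (1.01%) and 650 lower genes (3.66%). The threshold fell within a continuous range: the nearest genes inside it were 2.002-fold lower and 2.0004-fold higher, and the nearest outside were 1.999-fold lower and 1.9998-fold higher. Among the 650 lower genes, 64 were lower by 4-fold or more, and the strongest had a log2 fold change of -3.70. Among the 179 higher genes, 13 were higher by 4-fold or more, and the strongest had 4.72. Of the 650 lower genes, 338 (52.0%) rose with ethylene and 9 (1.38%) fell, beside 25.3% and 21.1% of all 17777 genes. Of the 179 higher genes, 99 (55.3%) rose with ethylene and 25 (14.0%) fell. The 5 CPM filter, the 2-fold choice and the ethylene contrast all use the 4 ethylene-treated libraries. A gene high in either group is thereby favoured as rising with ethylene, so these shares are not independent of the choice.

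The 650 lower genes held 2.01% and 2.33% of all counts in calcium and ethylene replicates 2 and 3, and 4.60% and 6.40% in ethylene replicates 3 and 4. The 4 air libraries held 1.71% and 1.12% in calcium and 2.59% and 1.78% in control. Their median level was 9.88 and 11.97 CPM in calcium and ethylene and 22.6 and 36.7 CPM in ethylene, so both ethylene replicates were high. The genes were chosen on these values, and the air libraries were not used in that choice. In air, the 650 genes had a median log2 fold change of -0.47 in calcium against control, and 85.8% were below 0, beside 50.3% of the 17777 genes. Both calcium libraries were below both control libraries in 213 of them (32.8%) and above both in 16 (2.46%), beside 16.1% and 17.5% of all 17777. An unadjusted p under 0.05 in calcium against control was reached on the lower side by 102 of them (15.7%), beside 2.62% of all genes tested. The median in air was -0.87 without calcium replicate 1, -0.27 without calcium replicate 2, -0.22 without control replicate 1 and -0.62 without control replicate 2. It was negative in all 14 alternative fits, but the fits that kept all 4 air libraries could hardly change it, as the list was fixed.

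The 179 higher genes did not share this pattern. They held 2.14% and 2.71% of all counts in calcium and ethylene replicates 2 and 3, 1.52% in ethylene replicate 3 and 0.154% in ethylene replicate 4. Relative to the mean of the air libraries, their median log2 level was 2.37 and 2.40 in calcium and ethylene, 1.62 in ethylene replicate 3 and -0.36 in ethylene replicate 4. Ethylene replicate 4 was thus at or below the air libraries, which lay between -0.083 and 0.14, while ethylene replicate 3 was closer to the calcium and ethylene libraries. In air their median in calcium against control was 0.05, and -0.092 without calcium replicate 2. Both calcium libraries were above both control libraries in 34 of them (19.0%) and below both in 25 (14.0%), beside 17.5% and 16.1% of all 17777.

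**Figure D5:**
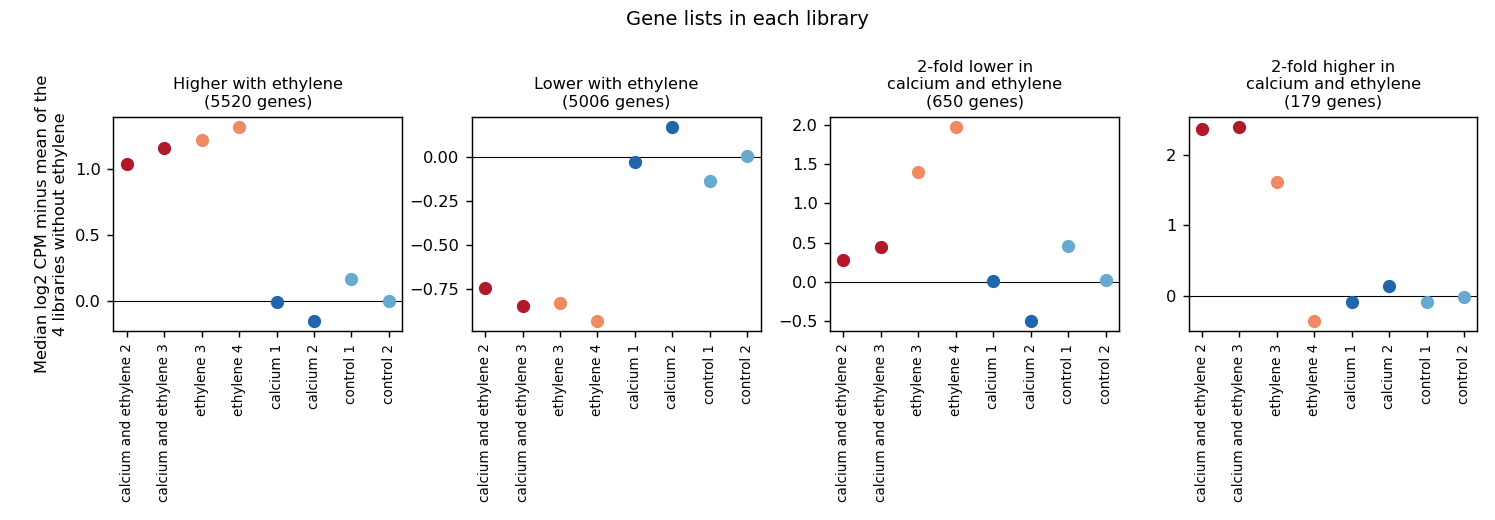
Median log2 CPM of 4 gene lists in each library (x axis), relative to the mean of the 4 libraries without ethylene (y axis, a scale for each panel); each point is 1 library, coloured by group. The 650 genes at least 2-fold lower in calcium and ethylene stand at 1.41 and 1.98 in ethylene and 0.28 and 0.44 in calcium and ethylene, and the 179 higher genes at -0.36 in ethylene replicate 4.

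Whether the calcium difference itself depended on ethylene was tested by the interaction. No gene was called by edgeR (0% of 27008, lowest adjusted p = 1), and DESeq2 called 1 of the same 27008. At an unadjusted p under 0.05 there were 644 genes (2.38%), where 5% of the genes tested is 1350. Calcium against control alone also had no edgeR call (0%), with 330 genes higher (1.22%) and 707 lower (2.62%) at an unadjusted p under 0.05. DESeq2 made 6 calls there among the same 27008 genes. The interaction had an unadjusted edgeR p under 0.05 in 299 of the genes that rose with ethylene (5.42%) and 54 of those that fell (1.08%). Among genes not called with ethylene there were 291 (1.77%), beside 2.38% of all genes tested. The difference between these shares was not tested, and the lists come from the same libraries. The median interaction was -0.01 on the log2 scale in the genes that rose with ethylene and 0.01 in those that fell, beside -0.0039 in all genes tested. The ethylene response of the genes that rose was, at the median, 1.21 between calcium and ethylene and calcium and 1.22 between ethylene and control. For the genes that fell these medians were -0.88 and -0.83. The ethylene responses share their libraries with the choice of these lists. The 4 named genes had interactions of -0.95 (SE 0.31) for AGIS_Os07g007890, -1.08 (SE 0.31) for AGIS_Os11g027170, 1.59 (SE 0.48) for AGIS_Os02g007250 and 1.57 (SE 0.49) for AGIS_Os04g029580, each with an edgeR adjusted p of 1. These genes were chosen on their calcium difference with ethylene, which is part of the interaction, so the choice favours large values here. A p that misses the threshold in these 4 groups of 2 does not show that the calcium differences were alike with and without ethylene.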

How the data were processed

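The deposited table holds raw counts per gene. The submitters' processing notes list fastp and featureCounts. Aligner, build, annotation and strandedness were not given in the sources used here. Near-identical copies and overlapping or antisense genes cannot be told apart. None of the 57359 gene IDs matched the 39387 genes of the RefSeq table.

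In R 4.3.3, genes were kept by filterByExpr (minimum count 10), which left 99.9% of counts. One robust edgeR 4.0.16 quasi-likelihood model with TMM factors and 4 groups was fitted to all 8 libraries, and Benjamini-Hochberg adjustment ran over all 27008 genes (threshold 0.05). CPM are TMM-scaled, and log2 CPM used a prior count of 2. Fits were tested on simulated data. The floor covers counting error only, and amplified reads are not independent molecules. Each SE of an edgeR log2 fold change is its absolute value divided by the square root of the F statistic. It therefore includes the spread between libraries. The 4 named genes are the 2 lowest p in each direction with a mean of at least 5 CPM and groups without overlap. Alternatives were RLE factors, DESeq2 1.42.0, other filters, a 1.2-fold minimum, the replicate number as a block, fewer libraries and leaving out each library. The groups, lists and tests were chosen with earlier results of these data known. Planned lists of ethylene, calcium, auxin, abscisic acid and tissue marker genes could not be filled without gene names. Figures used Python 3.11.15 and matplotlib 3.10.9.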

Additional observations from a re-analysis of the deposited data

How the results depend on the processing

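Of 158 recomputed counts and medians, 124 kept their direction and moved by less than 1.5-fold (counts) or 1 SD between replicates (medians). The 124 include call counts that stayed at 0, which have no direction. They also include medians in air from fits that kept every air library, which could hardly move. The 124 therefore overstate stability. The cause of the other 34 was not tested, beyond fewer genes or libraries in some fits. The counts at an unadjusted p and the medians in air were added to the alternatives after the data had been seen. Adjusted calls, 0 in the fit reported, came to 180 for calcium and ethylene against ethylene, 6 for calcium against control and 1 for the interaction with DESeq2. Testing every gene with a count gave 116, 15 and 1. With 1 library left out these were 0 to 345, 0 to 0 and 0 to 20. A lone library in a group is assumed to vary like the others. At an unadjusted p the 616 higher genes became 1013 without the filter and 199 to 2239 with 1 library left out, and the 1460 lower genes became 901 from a mean of 10 CPM and ran from 418 to 2290 as single libraries were dropped. The genes 2-fold apart without overlap were 515 higher and 1035 lower from 1 CPM and 114 higher from 10 CPM, and with 1 of the 4 libraries left out 146 to 830 higher and 338 to 1381 lower. A single library overlaps less readily than a pair by construction. The 10526 genes called with ethylene became 6720 to 9587 with 1 library left out. The medians of the genes that rose and fell with ethylene, listed anew in each fit, ranged from -0.42 to -0.076 and from 0.087 to 0.38. The medians in air, over fixed lists, ranged from -0.092 to 0.15 for the 179 higher and from -0.87 to -0.22 for the 650 lower genes. RLE factors changed the median of all genes by less than 0.1 on the log2 scale. With the replicate number as a block, 231 genes were higher and 446 lower of 27008 tested at an unadjusted p under 0.05. In that fit 1938 were called with ethylene, and the median of the genes that fell, listed anew, was 0.10. In calcium against control 441 were higher and 1121 lower (330 and 707 without the block). The block fit had 1 residual degree of freedom against 4 in the fit reported, so their counts cannot be compared on equal terms. Calcium and ethylene and ethylene share number 3 alone, and number 4 occurs in 1 library, which the block term fits exactly. Deviations from the group means were correlated across genes between libraries with the same number. The values were 0.0154 between calcium and ethylene replicate 3 and ethylene replicate 3, and 0.180 between calcium and control. They were 0.107 between calcium and ethylene and calcium, and 0.104 between calcium and ethylene and control. In a group of 2 the deviations are mirror images, so the calcium and control value is the same for both numbers by construction. Each value also holds for the remaining libraries of its groups. As no label explains the numbers and 1 of these values was under 0.1, they were not taken as pairing libraries.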

Other observations

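The settings that called genes in calcium and ethylene against ethylene differed in the balance of higher and lower genes. DESeq2 called 16 higher and 164 lower, testing every gene with a count gave 15 higher and 101 lower, and leaving out ethylene replicate 3 gave 171 higher and 174 lower. Of DESeq2's 180 calls, 111 rose with ethylene and 8 fell, beside 20.4% and 18.5% of all genes tested. These calls and the ethylene lists share libraries, so this split is not independent of the choice. All 180 had groups without overlap, as the choice by p favours. Without the filter on low counts edgeR called 116 genes, and 88 of these were also among DESeq2's calls, which is 75.9% of that list and 48.9% of DESeq2's 180. All 116 were among the genes tested with the filter, and none had a mean under 1 CPM in the ethylene-treated libraries.

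Hardly any gene was switched fully on or off between the groups. A single gene had 0 counts in both calcium and ethylene libraries and at least 20 counts in both ethylene libraries, and 0 genes had the reverse. The genes that fell with ethylene by 1 to 2 on the log2 scale were split, with quartiles of -0.36 and 0.44 around their median of 0.21 in calcium and ethylene against ethylene. The genes with an unadjusted p under 0.05 had a median length of 1972.5 bases where higher and 1662.5 bases where lower in calcium and ethylene, beside 1754.5 bases over all genes tested.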
